A study of Bos taurus with 2 samples.

Results

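The PLAC8 family, 4 of 16959 gene names on a bovine oligonucleotide array, was read by 9 of its 43653 distinct probes, and 7 of the 9 lay above background on both arrays. The members were taken by name: a probe belonged if its gene name on the array, or the gene of its RefSeq transcript, was PLAC8A, PLAC8B, PLAC8 or PLAC8L1. The family was picked because PLAC8A had the highest ratio, low over high feed efficiency, among bright genes of these arrays whose probes all ran the same way. The PLAC8A values are therefore a description of what singled the family out, with no test. The samples were total RNA of whole blood of Holstein cattle, labelled with Cy3. There was 1 array of a specimen of low feed efficiency (LFE), which stands for high residual feed intake (feed eaten beyond what size and production call for), and 1 array of a specimen of high feed efficiency (HFE). The labels give neither the age of the animals nor how many gave blood, and name no treatment. With 1 array per group, differences between the groups cannot be told apart from differences between the specimens, and the number of arrays limits the precision.

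PLAC8, also called onzin, is a small cysteine-rich protein that was found in placenta and is made in blood by myeloid and lymphoid cells. In mice, neutrophils that lack it kill bacteria poorly, and in brown fat it acts upstream of the transcription factor gene Cebpb. In cattle, PLAC8 transcripts are known from the uterine lining in early pregnancy, where interferon from the embryo acts. The bovine genome holds PLAC8A and PLAC8B side by side, and PLAC8L1, a little studied relative with the same domain, lies elsewhere.

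The array gives the name PLAC8 to 7 of the probes, which stand for more than a single gene. By the RefSeq transcript printed for each probe and a gene table of the assembly ARS-UCD2.0, used only for names and neighbours, 4 of them match PLAC8A and 2 match PLAC8B. The remaining probe (A_73_P168017) carries only a cDNA clone. PLAC8 is an older synonym of both genes in that table, so this probe is called the unresolved PLAC8 probe here. The same clone is cited among the transcripts of a PLAC8B probe. PLAC8L1 had 1 probe on its RefSeq transcript and 1 on another cDNA clone. Sequences of the probes were not used here, so cross-hybridisation between PLAC8A and PLAC8B was not tested.

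All 4 PLAC8A probes were brighter in LFE, by 2.54-fold to 3.51-fold. Values are the pixel median of a spot minus background, in scanner units. Probe 1 (A_73_P400741) read 399 in LFE and 94 in HFE. Probe 2 (A_73_107112) read 377 in LFE and 93 in HFE. Probe 3 (A_73_P111621) read 343 in LFE and 86 in HFE. The first 3 probes thus lay within a narrow band on each array, and the bands of the arrays were far apart. Probe 4 (A_73_P110341) read 304 in LFE and 99 in HFE, which made it the dimmest of the set in LFE and the brightest in HFE. Across the set, intensities ran from 304 to 399 in LFE and from 86 to 99 in HFE, with no overlap. These intensities are before scaling between the arrays. PLAC8A was chosen for a high ratio with all probes running the same way, so nothing is read from the lack of overlap. How many other genes show no overlap was not counted. Every PLAC8A reading was at least 7.89 times the cut for a signal above background, which was the median of the negative control spots plus 3 robust SDs, or 10.9 on both arrays.

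**Figure D1:**
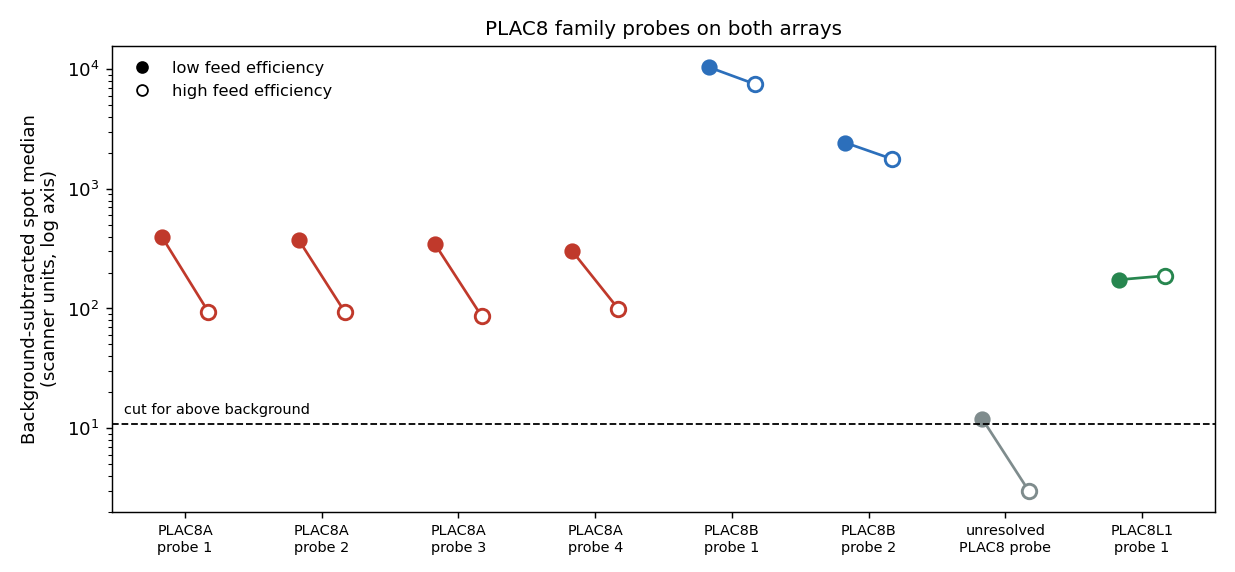
Background-subtracted spot intensity in scanner units (log axis) of the family's probes, with LFE (filled) left of HFE (open) and a dashed line at the cut for above background, 10.9. The 4 PLAC8A pairs drop steeply, the 2 PLAC8B pairs slightly, and PLAC8L1 probe 1 is nearly level; the second PLAC8L1 probe, at 3 and 0, cannot be drawn on a log axis.

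Each array was scaled on its 75th percentile of probe intensity, which was 98 in LFE and 81 in HFE, and differences were taken on the log2 scale as LFE minus HFE. PLAC8A then had differences of 1.81, 1.74, 1.72 and 1.34 for probes 1 to 4. Their mean was 1.65 ± 0.21 (SD over 4 probes, which share a specimen and an array and are not replicates). Before this scaling the ratios of intensity were 4.24, 4.05, 3.99 and 3.07. Between replicate spots of the same probe, measured on probes printed more than once, the log2 difference had an SD of 0.16 for bright probes, above the median signal (17 probes, 67 spots), and 0.23 for dim ones (19 probes, 71 spots). The family's probes were each printed once, and those above background on both arrays were all in the bright class. All PLAC8A differences were well above the spot-to-spot SD, which says nothing of the spread between animals. PLAC8A was chosen for a high ratio, so this describes the values and supports no call.

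Of the 7 family probes above background on both arrays, 4 were at least 2-fold higher in LFE, all of PLAC8A, and none was 2-fold lower. Among all 21999 probes above background on both arrays, 102 (0.464%) were 2-fold or more higher and 127 (0.577%) 2-fold or more lower. Among the 10999 brighter ones, those above the median signal, 20 (0.182%) were at least 2-fold higher. Since the family was chosen on this contrast, nothing is read from its count against these shares. On the array as a whole, 3 probes had a larger difference than PLAC8A probe 1, and 22 had a larger one than probe 4, the other PLAC8A probes among them.

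**Figure D2:**
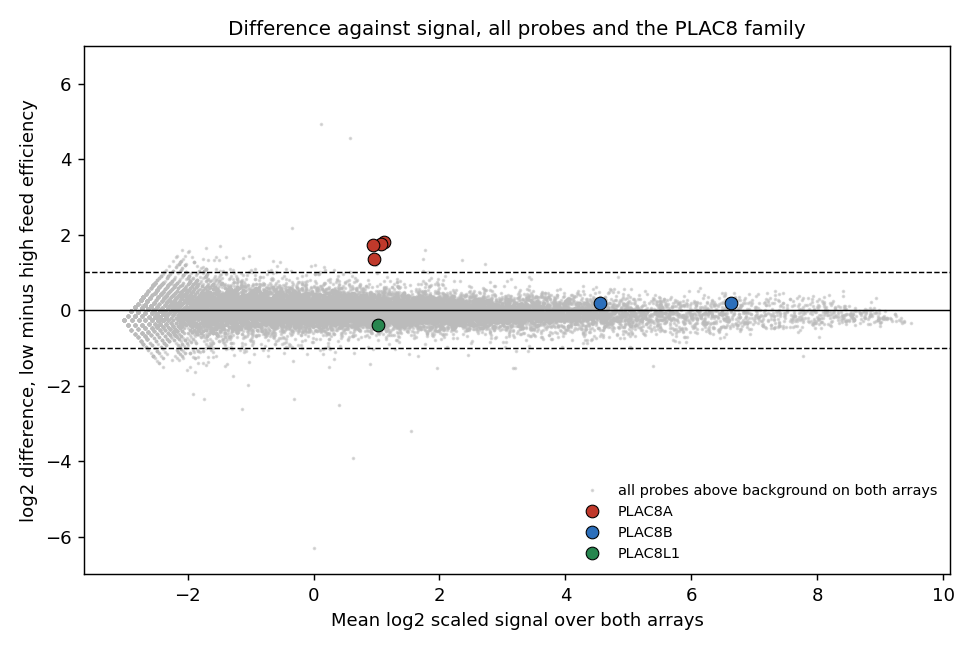
The log2 difference of LFE minus HFE (vertical) against the mean log2 scaled signal (horizontal) for the 21999 probes above background on both arrays (grey) and the family's 7 (coloured), with dashed lines at 2-fold. PLAC8A lies in a tight group at 1.34 to 1.81 above the grey band, while PLAC8B at 0.18 to 0.20 and PLAC8L1 at -0.39 lie within it.

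PLAC8B, the neighbouring gene with which PLAC8A shares its old name, was less than 1.5-fold apart. PLAC8B probe 1 (A_73_115944) read 10439 in LFE and 7516 in HFE, a difference of 0.20. Its probe 2 (A_73_P336466) read 2435 in LFE and 1782 in HFE, a difference of 0.18. Both probes were brighter in LFE, by 1.15-fold and 1.13-fold after scaling, and their differences were close to the spot-to-spot SD of 0.16. Before scaling the ratios were 1.39 and 1.37. Probe 1 was unflagged by the scanner software in LFE and flagged good in HFE, and probe 2 was flagged good on both. No family probe had saturated pixels.

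PLAC8L1 was dimmer in LFE. Its probe 1 (A_73_117558) read 174 in LFE and 188 in HFE, a difference of -0.39 after scaling, or 0.765-fold. Before scaling the ratio was 0.926. The 75th percentiles used for scaling themselves differ by 0.27 on the log2 scale, more than the 2 unscaled readings do. Among the other probes above background on both arrays, 89.9% had a difference above that of PLAC8L1 probe 1, against 21.6% for PLAC8B probe 1 and 24.1% for PLAC8B probe 2. The second PLAC8L1 probe (A_73_P513278), on a cDNA clone, read 3 in LFE and 0 in HFE, below background on both arrays, and has no difference.

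The unresolved PLAC8 probe was at the edge of detection. It read 12 in LFE and 3 in HFE, above the cut of 10.9 only in LFE. Its pixels were uneven there, with a mean of 48 and an SD of 103 over 120 pixels, against a mean of 29 and an SD of 8 over 120 pixels in HFE. The software left it unflagged in LFE and marked it as not found in HFE. No fold is given, because its scaled signal in LFE, 0.122, was under the lowest signal that could be called above background in HFE, 0.136.

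A factor that scales a whole array cancels when probes of the same arrays are set against each other. Over the 8 pairs of a PLAC8A and a PLAC8B probe, the PLAC8A difference was larger by 1.14 to 1.64 on the log2 scale, or 2.21-fold to 3.11-fold. Against PLAC8L1 probe 1 it was larger by 1.73 to 2.20, or 3.32-fold to 4.59-fold. PLAC8B against PLAC8L1 gave 0.56 and 0.59. Steps that act on signal level or background do move these gaps: PLAC8A against PLAC8B was at least 1.04 with quantile, 1.03 with loess and 0.87 in the authors' deposited table after a move by 1 row, and 0.82 with normexp on the spot mean. PLAC8A had the larger difference by every pair of probes under each setting. Settings that only scale a whole array or filter probes cannot change the gap of a pair. The pairs also reuse the same few spots of the same arrays. Since PLAC8A was chosen for a high ratio, nothing is read from its lead over the other members. If the probes were grouped by the array's own name PLAC8, the 6 probes above background would have a mean of 1.17 with an SD of 0.78, which describes neither gene.

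The PLAC8A spots were clean by the scanner's own measures. All 4 were flagged good on both arrays and covered 80 pixels each. Their pixel SD was 13.9% to 23.5% of the pixel mean in LFE and 22.0% to 25.6% in HFE. Propagated over pixels, which are not independent of each other, the standard error of the log2 difference was 0.050 to 0.068 for PLAC8A. Pixel means in place of medians gave differences of 1.82, 1.80, 1.87 and 1.44 for probes 1 to 4. For PLAC8B they gave 0.18 and 0.16, and for PLAC8L1 probe 1 they gave -0.29.

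The 4 PLAC8A spots lay far from each other on the array, at columns 144, 223, 59 and 39 and rows 60, 72, 42 and 35 for probes 1 to 4. Probes within 5 columns and 5 rows of them, other than family members and above background on both arrays, had median differences of 0.04, 0.003, -0.08 and -0.04. Of these 250 surrounding probes 2 were at least 2-fold higher in LFE. Each PLAC8A probe lay above the highest of its surrounding probes, which was 1.06, 1.11, 0.77 and 0.92. Since PLAC8A was chosen for a high ratio, nothing is read from its place above those highest values. For PLAC8B the surrounding medians were -0.01 and -0.13, and for PLAC8L1 probe 1 it was -0.04.

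**Figure D3:**
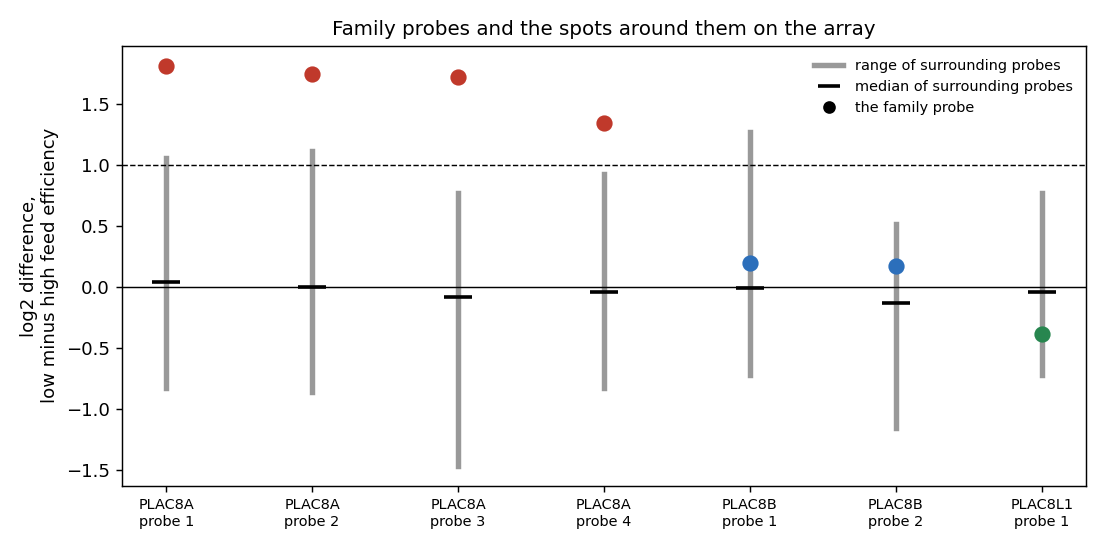
The log2 difference of LFE minus HFE of each family probe above background on both arrays (coloured), beside the range (grey bar) and median (black dash) of the probes within 5 columns and 5 rows of it. The surrounding medians run from -0.13 to 0.04. The PLAC8A probes, chosen for a high ratio, sit above their surroundings while PLAC8B and PLAC8L1 sit inside theirs.

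The probes of PLAC8A agreed about as well as those of other genes with several probes. Over 688 genes with at least 4 probes above background on both arrays, the median SD over probes of the log2 difference was 0.17, and 59.6% of these genes had a smaller SD than PLAC8A. Among them 1 (0.145%), PLAC8A, had every probe at least 2-fold higher. The next highest in this respect was the ribosomal protein gene RPL5, whose lowest probe had 0.40. Among 4994 genes with at least 2 such probes, 2 (0.04%) had every probe at least 2-fold higher, PLAC8A and the pepsinogen gene PGA5. No gene had every probe 2-fold lower in either set. PLAC8A was chosen for a high ratio with all probes running the same way, so its place in these counts restates that choice.

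The median probe difference of PLAC8A was 1.73. Among the other named genes with at least 2 probes above background on both arrays, the nearest was PGA5 with a median of 1.09, a gap of 0.64 over 2 arrays. Next came the interferon-inducible gene IFI27 with 1.06, the GTPase gene RAB13 with 1.06, the chromatin gene EPC2 with 1.05 and the membrane-remodelling gene CHMP4B with 1.01. IFI27 had 3 probes at 0.37, 1.06 and 1.34, the brightest of them the lowest. RAB13 had 1 probe at 2.17 and 1 at -0.05, and CHMP4B had 3 from 0.01 to 1.08. EPC2 had 0.99 and 1.11, at intensities of 53 and 34 in LFE and 22 and 13 in HFE. PGA5 had 1.03 and 1.16, at 467 and 143 in LFE and 189 and 53 in HFE.

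The chromosomal neighbours of the family were less than 2-fold apart. Each gene is given here by the brightest of its probes that passed background on both arrays. Of 15 neighbours listed, 9 were measured, and all lay between -0.04 and 0.43 with a median of 0.02. Over all 10339 genes measured, the median was -0.04, with 38 (0.368%) 2-fold or more higher and 59 (0.571%) 2-fold or more lower. COQ2, which makes ubiquinone and is the first protein-coding gene on one side of PLAC8A, had 0.43 at 218 in LFE and 134 in HFE. COPS4, a subunit of the COP9 signalosome and the nearest protein-coding gene on the other side of PLAC8B, had 0.24 at 300 in LFE and 210 in HFE. THAP9, a gene derived from a transposase, had 0.34 at 167 in LFE and 109 in HFE. HPSE, the heparanase gene beyond COQ2, had -0.04 at 40 in LFE and 34 in HFE. Beside PLAC8L1, the leucyl-tRNA synthetase gene LARS1 had -0.03 with its other probe at 0.42, and the RNA-binding protein gene RBM27 had 0.29.

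CNFN, which encodes cornifelin of the skin barrier and carries the same domain as PLAC8, had 0.00 at 131 in LFE and 108 in HFE. Its sign changed under 4 of the alternatives. Genes tied to PLAC8 in human or mouse work, among them the ubiquitin ligase gene MDM2 and the kinase gene AKT1, gave no member 2-fold apart among 8 measured of 8. Their median was -0.01, beside -0.04 over all genes, with 4 above 0, beside 44.4% of all genes. CEBPB, a transcription factor of myeloid cells and fat, had -0.70 at 1134 in LFE and 1527 in HFE, with 3 probes from -0.70 to -0.08. CEBPB, the member farthest from 0, was thus lower in LFE, where PLAC8A was higher. Whether CEBPB and PLAC8A are related in cattle blood was not tested.

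Interferon-induced genes stood above the median of all genes. Of 45 listed, 39 were measured. Of these 2 were at least 2-fold higher, beside 0.368% of all genes, and 37 differed by less. The list was chosen with earlier results known, and its counts have no test. Their midpoint, the median, was 0.18, beside -0.04 over all genes, and 31 of the 39 lay above 0, beside 4590 of 10339 (44.4%) over all genes. IFI47, an interferon-inducible GTPase gene, had 1.21 at 983 in LFE and 350 in HFE, by a single probe. OAS1X, whose product makes the signal that activates RNase L, had 1.15 at 43 in LFE and 16 in HFE, close to background. Whether PLAC8A belongs with these genes in cattle blood was not tested.

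Marker lists of blood cells had medians between -0.29 and 0.14. The tissue label was borne out by the globin gene HBA, at 26648 in LFE and 20058 in HFE, and by the calgranulin gene S100A8, at 17264 in LFE and 13316 in HFE. Of 16 neutrophil markers all were measured, 13 lay above 0, beside 44.4% of all genes, none was 2-fold apart and the median was 0.14. Their signal summed over genes, in units of each array's 75th percentile, was 927 in LFE and 824 in HFE. The cathelicidin genes CATHL1 and CATHL2, of neutrophil granules, had 0.97 and 0.73 at 38 and 32 in LFE and 16 and 16 in HFE. Monocyte markers had a median of -0.06 with 3 of 8 above 0, beside 44.4% of all genes, and summed to 299 in LFE and 341 in HFE. Markers of plasmacytoid dendritic cells, the main makers of interferon, had a median of -0.13 with 1 of 6 above 0, beside 44.4% of all genes. They summed to 82.0 in LFE and 92.4 in HFE. Most of that sum came from the single gene GZMB. Before scaling it read 6036 of a list sum of 8039 in LFE, and 5669 of 7483 in HFE. Another member, IRF7, is also on the interferon-induced list.

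Among lymphocyte markers, those of B cells had a median of -0.24 with 2 of 5 above 0, those of T cells -0.14 with 1 of 6, and those of natural killer cells -0.29 with 1 of 5, where the share over all genes was 44.4%. The summed signals were 59.9 in LFE and 65.2 in HFE for B cells, 179 and 218 for T cells, and 10.53 and 14.96 for natural killer cells. Markers of eosinophils, basophils and mast cells had -0.27 over 3 measured of 8, while SIGLEC8, CPA3 and EPX were on the array but not above background on both arrays. They summed to 3.68 in LFE and 5.05 in HFE. Erythroid markers had a median of -0.11 over 4 and platelet markers 0.06 over 4. Their sums were 341 in LFE and 308 in HFE for erythroid cells, and 276 and 259 for platelets. Of all markers, ALAS2, the erythroid enzyme gene of heme synthesis, was the only one measured as 2-fold apart, with -1.42. It had a single probe, at 112 in LFE and 248 in HFE. Of the 4 erythroid markers measured, 2 lay above 0, beside 44.4% of all genes. These were the globin genes HBA, with 0.13, and HBB, with 0.26. Fewer cells of a type and less RNA per cell cannot be told apart in whole blood, and the part of cell makeup in the PLAC8A difference was not tested.

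**Figure D4:**
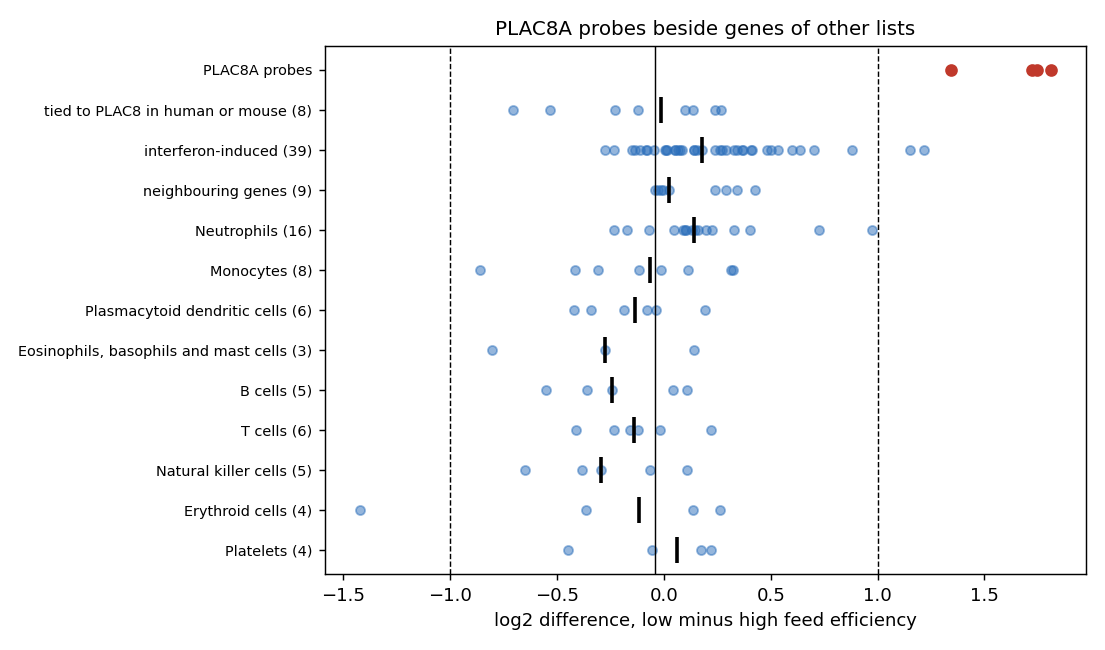
The log2 difference of LFE minus HFE of the 4 PLAC8A probes (red) and of genes of other lists (blue, the number measured in brackets), with list medians (black ticks), the median of all genes (line) and 2-fold (dashed). The list medians run from -0.29 to 0.18, all left of the PLAC8A probes.

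PLAC8A stayed at least 2-fold higher by all 4 probes under each of the 13 other ways of processing that kept the 2-fold threshold. Its lowest probe reached 1.097 with normexp background correction of the spot mean, and its highest reached 2.15 with spike-in scaling. Some settings only choose probes and left PLAC8A as reported, at 1.34 to 1.81. These were the cut at 6 robust SDs, no filter, spots flagged good only and saturated spots left out. PLAC8A was chosen for a high ratio, so its place above 2-fold restates that choice. PLAC8B stayed above 0 at each probe with a value, from 0.16 to 0.54, and PLAC8L1 probe 1 below 0, from -0.40 to -0.045. With spots flagged good only, PLAC8B probe 1 had no value. Spike-in scaling, on 7 control transcripts added to each sample, moved the median of all probes from -0.03 to 0.31. PLAC8B then lay above that median at 0.54 and 0.52, and PLAC8L1 below it at -0.045. Spike-in scaling turned the medians of the monocyte, dendritic, eosinophil, B, T, natural killer and erythroid lists and of the PLAC8-tied genes positive. The median of all genes moved with them, to 0.30. The medians of these cell lists, from 0.05 to 0.28, stayed below it, and that of the PLAC8-tied genes, 0.33, stayed above it. The erythroid median was also positive with normexp on the spot mean, the platelet median was negative with spots flagged good only, and the median of chromosomal neighbours was negative under 2 settings. The interferon and neutrophil medians were positive under all 14 settings.

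**Figure D5:**
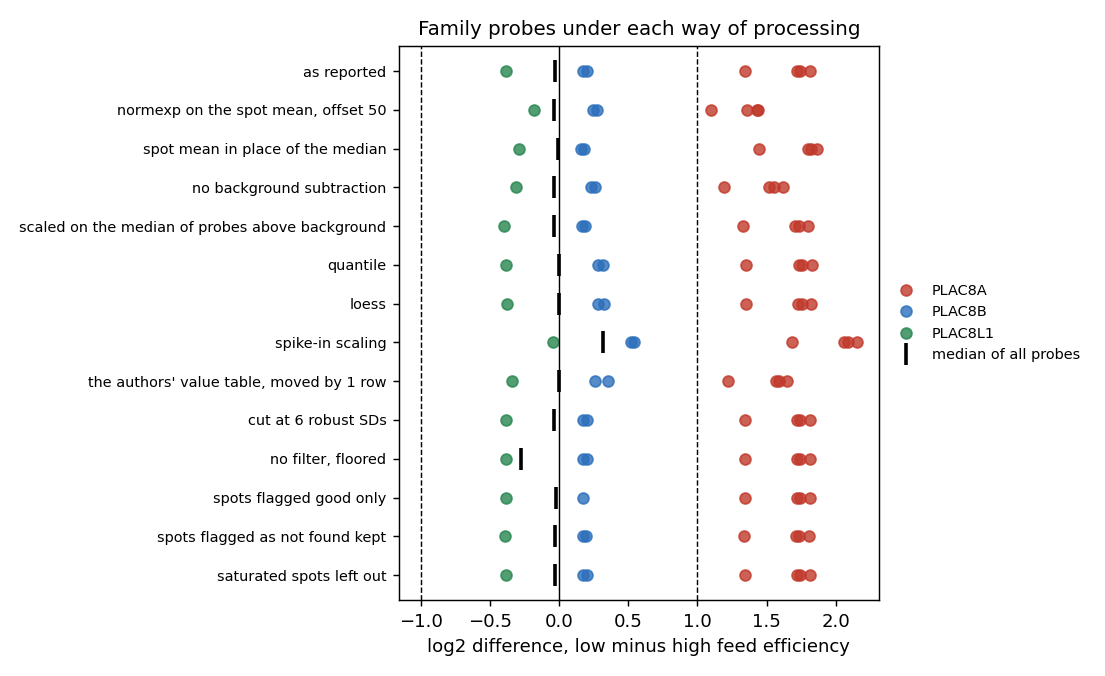
The log2 difference of LFE minus HFE (horizontal) of the family's probes above background on both arrays under each way of processing (vertical), with the median of all probes (black tick) and 2-fold (dashed). The PLAC8A probes, chosen for a high ratio, lie right of 2-fold in each line, between 1.097 and 2.15.

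The log2 values of the authors' deposited table followed a different order of probes: their rank order matched the scanner intensities only after a move by 1 row, at a Spearman's rho of 0.9996 in LFE and 0.9995 in HFE, against 0.077 in LFE and 0.072 in HFE as deposited. After the move it gave PLAC8A 1.65, 1.59, 1.57 and 1.22 for probes 1 to 4, PLAC8B 0.35 and 0.26, and PLAC8L1 probe 1 -0.34. As deposited, the rows of the same PLAC8A probes held 0.25, 0.42, -0.38 and -0.55. Read by its own row names, the table thus shows no 2-fold difference at PLAC8A.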

How the data were processed

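Per the file headers, the deposited intensity values are pixel statistics of a scan at 532 nm made with GenePix Pro 6.1.0.4, with a background of 25 on both arrays taken from negative control spots and no normalization between arrays. The deposited files also give, as a percent, how many pixels of a spot were saturated, and a score for its flag (100 good, 0 unflagged, -50 not found). Both arrays share 1 slide and 1 scan. Agilent Feature Extraction is named in the submitters' processing notes. The authors' deposited table holds log2 values, normalized in a way not given in the sources used here.

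Control spots, and 558 probes bright but flagged as not found, were left out, which kept 43095 probes. Replicate spots were averaged per probe. Above background means an intensity over the median of the negative controls plus 3 robust SDs. Intensities were scaled on the 75th percentile. Counts of differences use 2-fold; there is no test with 1 array per group. Alternatives were run in Python 3.11.15 and with limma 3.58.1 in R 4.3.3. The arithmetic of the 2-fold counts was tested on simulated arrays, which says nothing of the reliability of a call. Named genes were every family probe, the 5 genes nearest PLAC8A in median probe difference, and at most 2 members farthest from 0 per gene list, of which 1 is not reported here; HPSE, COPS4, LARS1, RBM27, RPL5, HBA, S100A8 and ALAS2 were named after their values were seen. Members and lists were chosen with earlier results of these data known.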

Additional observations from a re-analysis of the deposited data

How the results depend on the processing

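Leaving out an array was not possible with 1 per group. No paired analysis was possible because the groups share only 1 replicate number. The brightest PLAC8A probe, 1.81 as reported, had 1.43 with normexp on the spot mean, 1.62 without background subtraction, 2.15 with spike-in scaling and 1.65 in the authors' table after the move. PLAC8B had 0.54 with spike-in scaling in place of 0.20, and PLAC8L1 -0.18 with normexp on the spot mean and -0.045 with spike-in scaling in place of -0.39. This normexp setting changes the spot statistic and the background together. The spot mean alone, chosen after seeing the data, gave 1.82 for PLAC8A, 0.18 for PLAC8B, -0.29 for PLAC8L1, and 137 higher and 178 lower probes. The unresolved PLAC8 probe had no value to vary. The family kept 4 probes at least 2-fold higher except at a 4-fold threshold, where it had 0. These were the PLAC8A probes, whose gene was chosen for a high ratio. Over all probes, 102 were at least 2-fold higher and 127 lower as reported. The counts were 45 and 70 with normexp on the spot mean, 12 and 24 without background subtraction, 38 and 57 with the cut at 6 robust SDs, and 24 and 32 with spots flagged good only. They were 473 and 30 with spike-in scaling, 699 and 754 at 1.5-fold and 3 and 8 at 4-fold, and without a filter 212 were lower. The share of higher among these calls was 44.5% as reported, 94.0% with spike-in scaling and 33.3% without background subtraction. Spike-in scaling moved every family probe above background on both arrays by the same amount and left the gaps between them as reported. Apart from this scaling, the authors' table and thresholds, where the construction shows it, the cause of these shifts was not tested. Signal over background limits the cDNA clone probes of PLAC8 and PLAC8L1.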
